A study of Rattus norvegicus with 12 samples.

Results

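The splicing regulators and RNA-binding proteins examined here were the genes whose symbol placed them in the Srsf, Hnrnp, Sf3a, Sf3b, Rbm, Rbfox, Mbnl, Celf, Ptbp, or Qk families. The choice used the symbol only and no measured value, but it was made with earlier results of these data known. It gave 84 of the 17301 gene names in the tables, in 105 of 18752 transcript rows. By family these were 11 SR proteins, 18 hnRNP proteins, 9 SF3A and SF3B subunits, 30 RBM proteins, and 16 tissue-regulated factors (Rbfox, Mbnl, Celf, Ptbp, and Qk).

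The RNA came from adult rat ventricular myocytes (ARVMs) of male Sprague Dawley rats, which were cultured on laminin with the contraction inhibitor 2,3-butanedione monoxime and transduced at an m.o.i. of 50. There were 6 samples with Ad-h-NR4A2, an adenovirus carrying the human NR4A2 reading frame behind the cytomegalovirus promoter, and 6 with Ad-GFP, an adenovirus for enhanced green fluorescent protein, so that all samples carried a virus. RNA was collected 48 h later, and expression was given as FPKM, which scales fragment counts to transcript length and sequencing depth. Samples of both groups share the numbers 24 to 29, and samples of the same number are called pairs below.

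Splicing removes introns through the spliceosome, whose U2 particle carries the SF3A and SF3B subunits and binds the branch site. Which exons are kept is set by RNA-binding proteins: SR proteins mostly promote the use of an exon, hnRNP proteins often oppose it, and factors such as RBFOX, CELF, MBNL, and RBM20 adjust it by tissue and developmental stage. In the heart they shape transcripts for sarcomere and calcium-handling proteins such as titin, tropomyosin, and the ryanodine receptor.

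Nr4a2 was checked first. It was at a mean of 0.884 ± 0.309 FPKM in Ad-GFP samples (SD, n = 6) and at 445 to 592 FPKM in Ad-h-NR4A2 samples (log2 fold change 9.10, SE 0.17). These reads were assigned on the rat reference, so that the human transgene and the rat gene are not separated. Depth recovered from the low FPKM values was 18700000 to 27800000 fragments per sample. Cardiomyocyte markers summed to 18767 to 24264 FPKM in Ad-GFP and 16434 to 20122 FPKM in Ad-h-NR4A2 samples, and 5 of the 7 fell. Sums of the other marker lists were far lower, namely 5.82 to 30.3 FPKM for fibroblasts (1 of 7 fell, Col3a1, and Col1a2 was listed at 0 in all samples), 4.39 to 17.1 FPKM for endothelium (0 of 5 past the test), and 8.75 to 24.2 FPKM for smooth muscle and pericytes (1 of 5 fell, Myh11). Macrophage and leukocyte markers summed to 6.92 to 18.0 FPKM in Ad-GFP and 37.3 to 49.3 FPKM in Ad-h-NR4A2 samples, in which only Csf1r of the 5 rose and Ptprc, their defining marker, averaged 0.0258 and 0.0218 FPKM. The part of these marker levels in the results below was not tested. In such bulk RNA, fewer cells of a type cannot be told apart from less RNA per cell.

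Most of the family members were well expressed in ARVMs. Mean FPKM over the 12 samples, for the most abundant transcript of each gene, was at least 10 for 60 of the 84 and at least 1 for 70. Hnrnpa2b1, which binds nascent RNA throughout the nucleus, was the highest at 875 ± 81.6 (SD, n = 6) FPKM in Ad-GFP samples. By this transcript the next were Sf3b5 (mean over the 12 samples 168 FPKM), Hnrnpa1 (158), Hnrnpk (153), and Hnrnph2 (116). Single values of Sf3b5 (151 to 190 FPKM), Hnrnpa1 (119 to 219 FPKM), and Hnrnpk (140 to 172 FPKM) overlapped, so that the order of these neighbors is not fixed. With the transcripts of a gene summed, Srsf5 (190.4 FPKM over the 12 samples) came before Sf3b5 and Hnrnpl (160.3 FPKM) came before Hnrnpa1. Hnrnpa2b1 stood apart, with 745 FPKM in its lowest sample.

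Of the 84 members, 77 were above 0 in all 12 samples and were tested. The test was limma on log2(FPKM + 0.1), two-sided, with Benjamini-Hochberg adjustment over 10950 genes, and passing it means an adjusted p below 0.05. Dropped were Rbm12, Rbm14, Mbnl3, Rbfox3, Celf4, and Celf6, all at 0.107 FPKM or less in every sample, and Celf3, which was listed at 0 in all. Rbfox3, Celf3, Celf4, and Celf6 are best known from neurons.

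Separate care is needed for 5 names, Hnrnpab, Hnrnph3, Rbm12, Rbm14, and Rbm39. Each is listed at a second locus of the Rn5 assembly with the same or nearly the same transcript length. They had mean FPKM from 0.0153 to 0.311, although Rbm39 and Hnrnph3 are widely expressed genes. Of all 485 names with such a copy, 95.9% had a mean FPKM below 1 for their highest transcript, compared with 46.6% of the other 16816 names. Their values are therefore not read as levels. Whether fragments shared by such copies were left out upstream was not tested.

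Of the 77 members, 19 passed the test (24.7%), compared with 40.9% of all genes tested. Among them 9 rose and 10 fell, whereas 19.3% of all genes rose and 21.7% fell. Each of the 19 changed in the same direction in all 6 pairs, as did 45.5% of the tested members and 53.2% of all genes. Compared within pairs, by adding the sample number to the limma model as a block, 36 of 77 members passed, beside 59.4% of all genes. By family, 7 of 11 SR proteins, 11 of 18 hnRNP proteins, and 0 of 9 SF3A and SF3B subunits passed with the block. So did 13 of 28 RBM proteins and 5 of 11 tissue-regulated factors. With the block, the SR and hnRNP proteins thus did not lie below the share of all genes. Restricted to a mean FPKM of at least 1, 19 of 70 members passed, beside 44.9% of all genes at that level. The changes were small. The median size of the log2 fold change was 0.09 over the members and 0.20 over all genes tested, and the median signed value was 0.03 and -0.02. Only 2 members, Srsf12 and Rbfox1, also had group means differing by a ratio of at least 1.5, here called differentially expressed, and both fell. That limit was met by 15.2% of all genes, and by 7.24% in the direction of a fall. For the most abundant transcript, the 6 Ad-GFP and 6 Ad-h-NR4A2 values did not overlap for 8 members (Rbfox1, Rbfox2, Rbm20, Rbm18, Srsf11, Hnrnpu, Hnrnpr, and Hnrnpdl), beside 21.5% of all genes. Of these 8, Hnrnpdl did not pass the test.

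**Figure D1:**
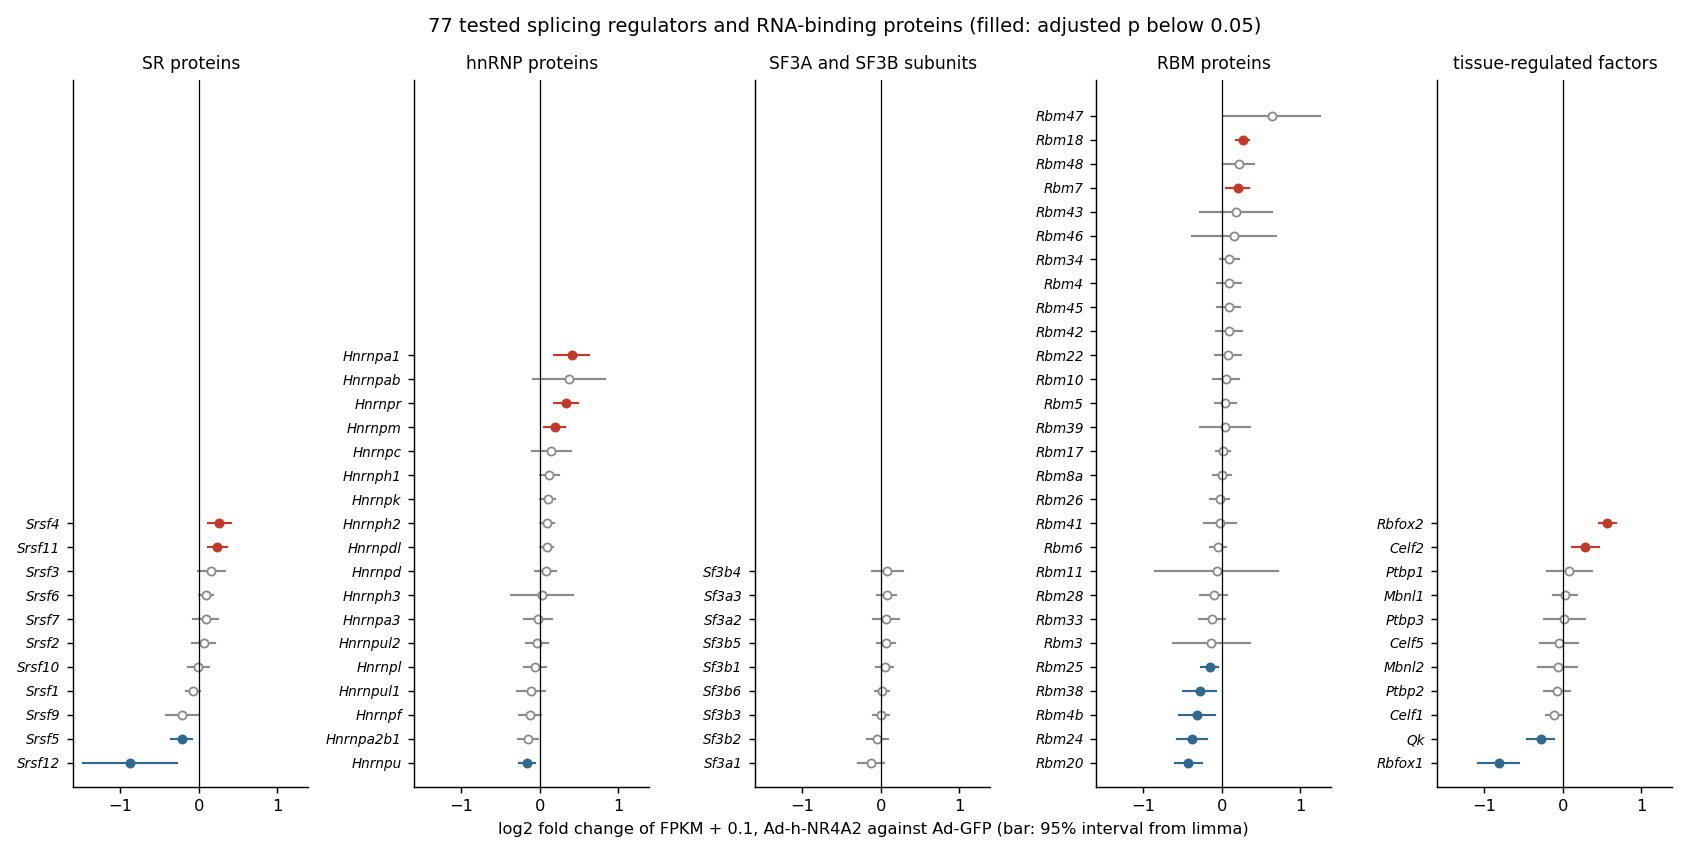
Log2 fold change of FPKM + 0.1 in Ad-h-NR4A2 against Ad-GFP samples for the 77 tested members, 1 panel per family, with 95% intervals from limma. Filled points (red higher, blue lower) are the 19 members with an adjusted p below 0.05, and open grey points are the other 58. Rbfox1 and Srsf12 lie farthest to the left, Rbfox2 is the farthest filled point to the right, and no SF3A or SF3B subunit is filled.

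Of the 11 tested tissue-regulated factors, 4 passed the test, 2 higher and 2 lower. The median size of the log2 fold change was 0.08 among them and 0.09 over all tested members. The clearest changes among them were those of the RBFOX proteins, which moved apart. Rbfox1 encodes the member of this family enriched in muscle, heart, and brain, and Rbfox2 encodes its more broadly expressed relative, and both recognize the same short RNA element. Rbfox1 (chromosome 10, 7109396 to 7450683, Rn5) was at 17.0, 20.5, and 24.4 FPKM (lowest, median, and highest) in Ad-GFP samples and at 8.47, 12.2, and 14.1 FPKM in Ad-h-NR4A2 samples. Every Ad-h-NR4A2 value was below every Ad-GFP value. Mean FPKM went from 20.7 ± 2.96 to 11.8 ± 1.97 (SD, n = 6), a fall by 0.82 on the log2 scale (SE 0.12, adjusted p = 1.34e-04, two-sided exact permutation p = 0.00216, the smallest that 6 against 6 samples allow). These values rested on 1470 to 2716 fragments in Ad-GFP and 919 to 1261 in Ad-h-NR4A2 samples.

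Rbfox2 (chromosome 7, 118149474 to 118388515, Rn5) moved the other way. It was at 15.4, 16.3, and 18.1 FPKM in Ad-GFP samples and at 23.3, 24.7, and 25.4 FPKM in Ad-h-NR4A2 samples. The groups were again fully separated, with little spread in either. Rbfox2 rose by 0.57 on the log2 scale (SE 0.05), with an adjusted p of 1.04e-06, the smallest adjusted p of any member. The ratio of its means, 1.49, fell just short of 1.5, and it exceeded 1.5 without Ad-GFP 24, Ad-GFP 29, or Ad-h-NR4A2 25.

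Because the paralogs changed in opposite directions, their balance was examined, a choice made after their values were seen. In Ad-GFP samples Rbfox1 exceeded Rbfox2 in all 6, with a ratio of Rbfox2 to Rbfox1 FPKM of 0.697 to 0.908. In Ad-h-NR4A2 samples Rbfox2 exceeded Rbfox1 in all 6, with a ratio of 1.77 to 2.75. Each gene is listed with a single transcript, to whose length its FPKM is scaled. Which paralog is the higher, and their sum, depend on those lengths, whereas the fold change of the ratio between groups does not. The mean log2 of this ratio went from -0.31 ± 0.16 to 1.08 ± 0.23 (SD, n = 6), a difference of 1.39 that was 1.31 to 1.44 with any sample left out. Since each paralog separates the groups by itself, and in opposite directions, the ratio had to separate them too and is given as a description with no test. Their summed FPKM was 37.3 ± 3.77 in Ad-GFP and 36.4 ± 2.50 in Ad-h-NR4A2 samples (SD, n = 6), a difference of -0.870 FPKM (exact permutation p = 0.677) that was -1.84 to 0.0970 FPKM with any sample left out. The summed value was higher in 2 pairs and lower in 4. Because the sum was chosen after the opposite changes were seen, its permutation p does not show an unchanged total.

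**Figure D2:**
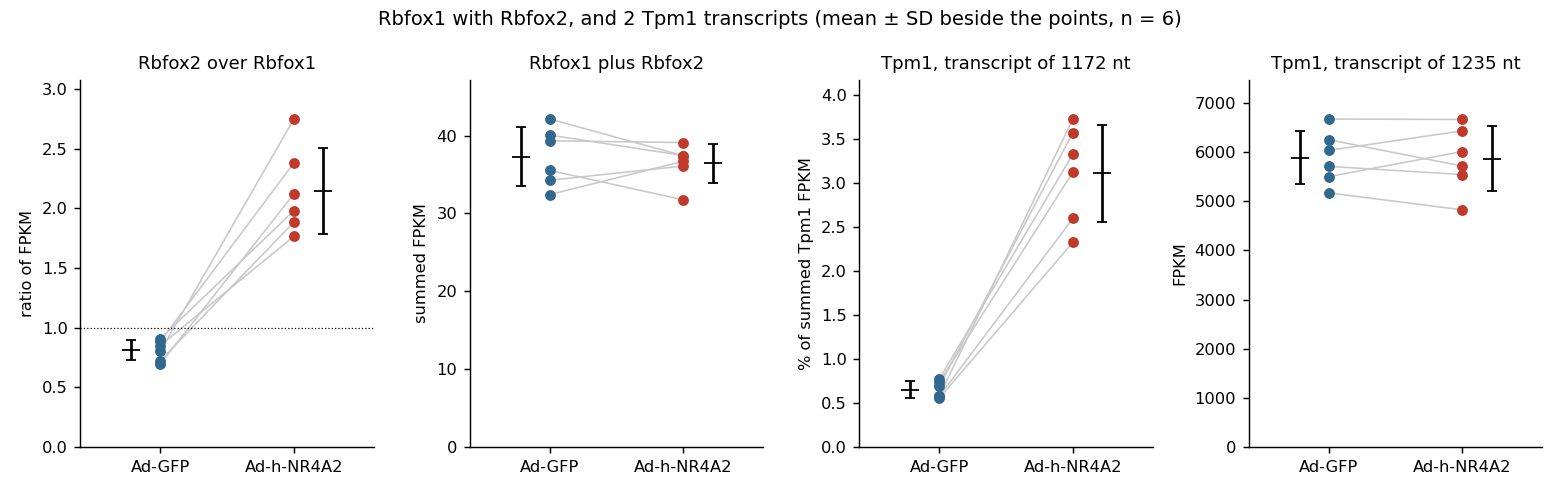
Left, the ratio of Rbfox2 to Rbfox1 FPKM (dotted line at 1) and their summed FPKM; right, the share of the 1172-nt transcript in the summed FPKM of Tpm1 (in percent) and the FPKM of the 1235-nt transcript of Tpm1. Points are single samples, grey lines join samples of the same number, and bars are means ± SD (n = 6). The ratio is below 1 in all Ad-GFP and above 1 in all Ad-h-NR4A2 samples, whereas the summed level overlaps between groups.

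Among the remaining tissue-regulated factors, Qk fell and Celf2 rose. Qk encodes quaking, a STAR-family protein that acts on splicing and RNA stability. Qk was at 23.4, 24.96, and 26.3 FPKM in Ad-GFP samples and at 16.0, 21.3, and 23.9 FPKM in Ad-h-NR4A2 samples. A single Ad-h-NR4A2 value (sample 24) lay above the lowest of the other group, and the change was -0.28 on the log2 scale (SE 0.08, adjusted p = 0.0110). Celf2, a CUG-binding protein, went from 16.0 ± 1.71 to 19.6 ± 1.81 FPKM (SD, n = 6) for its 1799-nt transcript. For this transcript the groups overlapped, with a rise of 0.29 on the log2 scale (SE 0.08, adjusted p = 0.0108). With both transcripts summed, Celf2 went from 24.3 ± 1.55 to 29.1 ± 1.78 FPKM. The summed groups just separated, at 26.1 FPKM in Ad-GFP sample 28 and 26.4 FPKM in Ad-h-NR4A2 sample 25. Its relative Celf1 had a value of -0.11 and did not pass (adjusted p = 0.0719), but did with the block (0.0125) and after quantile normalization (0.0163).

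The muscleblind and polypyrimidine tract-binding proteins did not pass. Mbnl1 and Mbnl2, the factors sequestered in myotonic dystrophy, were both abundant. Mbnl1 was at 73.6 ± 4.59 and 75.3 ± 8.29 FPKM, with a 95% interval of the log2 fold change from -0.12 to 0.18. Mbnl2 was at 74.1 ± 11.8 and 70.8 ± 11.4 FPKM (interval -0.32 to 0.19). Ptbp1, the repressor that Ptbp2 replaces in differentiating neurons, was at 6.78 ± 1.64 and 7.04 ± 0.632 FPKM for its 2890-nt transcript (interval -0.20 to 0.37) and at 13.3 ± 0.761 and 13.3 ± 0.638 FPKM with both transcripts summed, and its locus in the tables is shared with 15 other gene names. Ptbp2 was at 14.0 ± 1.02 and 13.4 ± 1.44 FPKM (interval -0.23 to 0.10), within the spread of that sum. Ptbp3 and Celf5, at 1.397 and 0.0339 FPKM over the 12 samples, were at low levels and did not pass.

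Of the 28 tested RBM proteins, 7 passed the test, 2 higher and 5 lower. The muscle factors of this family were among the falls. Rbm20 (chromosome 1, 281801481 to 282003053, Rn5), the splicing repressor of titin exons that is mutated in a form of dilated cardiomyopathy, was at 27.3, 28.7, and 32.2 FPKM in Ad-GFP samples and at 19.4, 21.0, and 26.9 FPKM in Ad-h-NR4A2 samples. The groups did not overlap, although the highest Ad-h-NR4A2 sample came close to the lowest Ad-GFP sample. Rbm20 fell by 0.43 on the log2 scale (SE 0.08, adjusted p = 7.72e-04), measured from 2832 fragments or more in each sample. Rbm24, needed for sarcomere assembly, was at 29.8, 34.7, and 37.7 FPKM in Ad-GFP samples and at 23.3, 25.6, and 34.3 FPKM in Ad-h-NR4A2 samples. It was lower in 6 of 6 pairs, but Ad-h-NR4A2 sample 24 lay within the Ad-GFP range. It fell by 0.38 on the log2 scale (SE 0.09, adjusted p = 0.00423).

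Rbm38, the closest relative of Rbm24, went from 50.0 ± 5.64 to 41.3 ± 5.96 FPKM (SD, n = 6). The groups overlapped, and the log2 fold change of -0.28 (SE 0.10) passed narrowly (adjusted p = 0.0333). Without single samples, it ranged from -0.32 to -0.23 and no longer passed in 6 of 12 cases, namely without Ad-GFP 24, 26, or 28 or without Ad-h-NR4A2 25, 27, or 29 (highest adjusted p 0.0759). With the block the adjusted p was 3.97e-04. All of Rbm20, Rbm24, and Rbm38 fell within every pair.

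The other RBM proteins past the test were named after their values were seen. Rbm18 was at 65.0, 67.4, and 70.3 FPKM in Ad-GFP samples and at 77.5, 80.1, and 88.2 FPKM in Ad-h-NR4A2 samples. The groups did not overlap, and the rise was 0.27 on the log2 scale (SE 0.04, adjusted p = 7.59e-05). Rbm7, a subunit of the nuclear exosome targeting complex, rose by less (0.20, SE 0.07, adjusted p = 0.0347). Rbm4b fell (-0.32, SE 0.11, adjusted p = 0.0330), and Rbm25 fell (-0.15, SE 0.05, adjusted p = 0.0246). For these last 3 the groups overlapped, and each lost the call without some single samples. The samples were, for Rbm7, Ad-GFP 26, 27, 28, or 29 or Ad-h-NR4A2 24, 25, or 26; for Rbm4b, Ad-GFP 24, 25, or 26 or Ad-h-NR4A2 26, 27, or 29; and for Rbm25, Ad-GFP 26, 27, or 28 or Ad-h-NR4A2 25. Rbm7 also lost it on the TPM scale (adjusted p = 0.0597). The highest adjusted p without a sample was 0.0785 for Rbm7, 0.0698 for Rbm4b, and 0.0557 for Rbm25. Rbm47, near the limit of detection with 1 to 16 fragments per sample, was at 0.0629 ± 0.0413 and 0.168 ± 0.110 FPKM and did not pass (log2 fold change 0.64, adjusted p = 0.0888), but did with the block (0.00645) and without Ad-h-NR4A2 27 (0.0154).

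Rbm3, induced by cold and other mild stress, differed more between pairs than between groups. It was at 76.0 and 73.4 FPKM in Ad-GFP samples 27 and 29 and at 37.1 to 48.7 FPKM in the other 4. In Ad-h-NR4A2 samples it was at 69.7 and 68.8 FPKM in samples 27 and 29 and at 32.1 to 44.7 FPKM in the other 4. The same sample numbers were thus high in both groups. On the log2 scale the change was -0.13 (SE 0.23, adjusted p = 0.682), and with the block the adjusted p was 0.00273, since within each of the 6 pairs Rbm3 had the lower value after Ad-h-NR4A2.

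**Figure D3:**
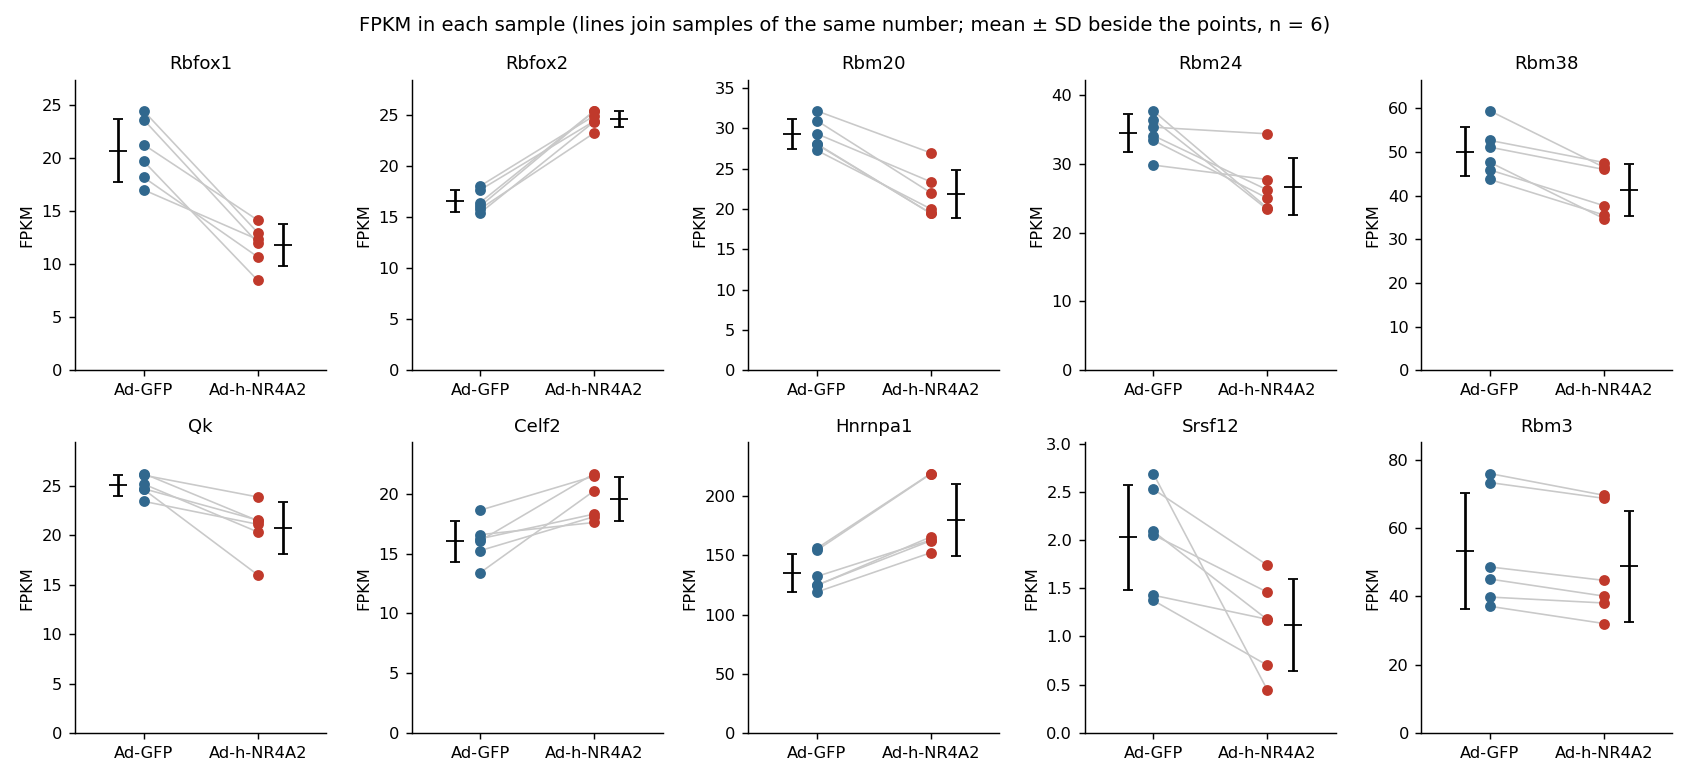
FPKM of the most abundant transcript of 10 regulators in each Ad-GFP sample (blue) and Ad-h-NR4A2 sample (red). Grey lines join samples of the same number, and means ± SD (n = 6) are beside the points. The points of Rbfox1, Rbfox2, and Rbm20 do not overlap between groups, those of the other 7 do, and samples 27 and 29 form the upper points of Rbm3 and Hnrnpa1 in both groups.

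All 11 SR proteins were tested, and 4 passed, 2 higher and 2 lower. Srsf12 (chromosome 5, 53038883 to 53066076, Rn5), an SR-related protein that can repress splicing, had the largest change of the 77 members but the fewest fragments among those past the test. It was at 1.37, 2.07, and 2.69 FPKM in Ad-GFP samples (16 to 43 fragments) and at 0.444, 1.18, and 1.74 FPKM in Ad-h-NR4A2 samples (6 to 28 fragments). The groups overlapped, and the lowest value belonged to Ad-h-NR4A2 sample 24, whose partner was the highest Ad-GFP sample. Srsf12 fell by 0.88 on the log2 scale (SE 0.28, 95% interval of the log2 fold change -1.47 to -0.28, adjusted p = 0.0220). Without Ad-h-NR4A2 sample 25 it was -0.78 and did not pass (adjusted p = 0.0511).

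The abundant SR proteins changed less. Srsf1, Srsf2, and Srsf3, the founding members of the family, did not pass. Srsf1 was at 44.7 ± 1.07 and 42.5 ± 2.30 FPKM (log2 fold change -0.07, adjusted p = 0.178), and Srsf2 at 104 ± 9.39 and 109 ± 9.60 FPKM (0.06, adjusted p = 0.491). Srsf3 had a value of 0.16, with an adjusted p of 0.120 without and 0.00839 with the block, and it passed without Ad-h-NR4A2 28 (0.0283). Srsf10, which represses splicing when dephosphorylated, was at 31.8 ± 2.11 and 31.7 ± 2.75 FPKM (log2 fold change -0.01, 95% interval -0.14 to 0.13).

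Past the test and named after their values were seen were Srsf4, Srsf11, and Srsf5. Srsf11 was at 26.6, 29.8, and 30.7 FPKM in Ad-GFP samples and at 31.6, 33.95, and 38.0 FPKM in Ad-h-NR4A2 samples. The groups did not overlap (log2 fold change 0.24, SE 0.05, adjusted p = 0.00359). Srsf4 rose by 0.26 (SE 0.07, adjusted p = 0.00787) with overlapping groups. Srsf5 fell, with a value of -0.22 (SE 0.06, adjusted p = 0.0133) for its most abundant transcript.

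Of the 18 hnRNP proteins, all tested, 4 passed, 3 higher and 1 lower. Hnrnpa1 (chromosome 7, 142647409 to 142651700, Rn5), a well-known exon silencer, was at 119, 129, and 156 FPKM in Ad-GFP samples and at 152, 164, and 219 FPKM in Ad-h-NR4A2 samples. The groups overlapped, because samples 27 and 29 were the highest of each. Within every pair the Ad-h-NR4A2 value was the higher, and Hnrnpa1 rose by 0.41 on the log2 scale (SE 0.10, adjusted p = 0.00695, and 4.84e-06 with the block). Hnrnpu, a nuclear matrix-associated protein needed for splicing in the postnatal heart, was at 114.4, 118, and 137 FPKM in Ad-GFP samples and at 99.9, 108, and 113.6 FPKM in Ad-h-NR4A2 samples. It fell by 0.16 on the log2 scale (SE 0.05, adjusted p = 0.0157), with groups that just separated.

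Hnrnpr and Hnrnpm, named after their values were seen, were the other members of this family past the test. Hnrnpr went from 11.2 ± 0.849 to 14.2 ± 1.18 FPKM (SD, n = 6), with no overlap (log2 fold change 0.34, SE 0.07, adjusted p = 0.00162). Hnrnpm had a value of 0.19 (SE 0.06, adjusted p = 0.0283), which was 0.12 with its transcripts summed (adjusted p = 0.0546) and 0.17 on the TPM scale (adjusted p = 0.0839). It also did not pass without Ad-GFP 25, 26, or 29 or without Ad-h-NR4A2 24 or 27 (highest adjusted p 0.0647). Hnrnpl, a binder of CA-rich RNA, was at 88.9 ± 7.40 and 85.3 ± 6.38 FPKM and did not pass (adjusted p = 0.493).

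Several other abundant hnRNP proteins did not pass but lay close to the threshold. Hnrnpa2b1 was at 875 ± 81.6 and 785 ± 31.3 FPKM (log2 fold change -0.15, adjusted p = 0.0519). It passed with the block (0.00353), when genes with a mean FPKM under 1 were left out (0.0441), on the TPM scale (0.0378), after quantile normalization (0.0329), and without Ad-GFP 28 or 29. Hnrnpk, a poly(C)-binding protein, and Hnrnph2, a binder of G-rich elements, had values of 0.10 and 0.09, with adjusted p of 0.0840 and 0.0911 without and 0.00433 and 0.0374 with the block. Hnrnpk also passed without Ad-GFP 24 (0.0195) and Hnrnph2 without Ad-h-NR4A2 28 (0.0334). Hnrnpdl had a value of 0.09, with an adjusted p of 0.0700 without and 0.0155 with the block.

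The SF3A and SF3B subunits showed no detectable change. Of the 9, 0 passed the limma test, with or without the block, and 0 had an unadjusted p below 0.05. Sf3b1, which contacts the branch site and is the subunit most often mutated in myelodysplasia, was at 58.7, 59.3, and 66.1 FPKM in Ad-GFP samples and at 58.4, 61.5, and 68.4 FPKM in Ad-h-NR4A2 samples. The groups covered the same range (log2 fold change 0.05, 95% interval -0.06 to 0.16). Over the family, the values lay between -0.12 (Sf3a1) and 0.08 (Sf3b4), and the outermost interval limits were -0.29 and 0.28. Their levels differed more from each other than between groups, from 8.48 FPKM for Sf3a1 to 168 FPKM for Sf3b5 over the 12 samples.

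**Figure D4:**
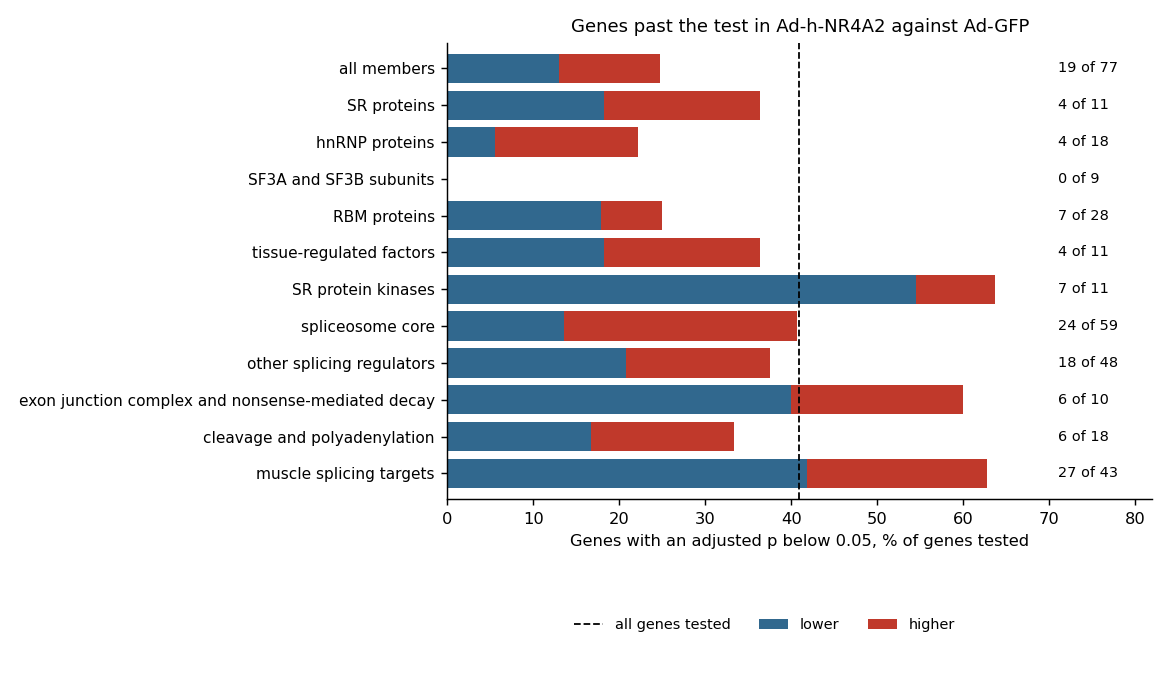
Share of tested genes (in percent) with an adjusted p below 0.05 for all members, the 5 families, and 6 other lists of RNA-processing genes and splicing targets, split into lower (blue) and higher (red) in Ad-h-NR4A2 samples, with the number of genes at the right. The shares are those of the unpaired test, without the block. The dashed line is the share among all genes tested, 40.9%, and the bars of the 5 families end to the left of it.

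The tables hold several transcripts for 14 members, 5 of them only as the copies described above. With every transcript tested by itself, 21 of 94 member transcripts passed (22.3%), beside 39.1% of all transcripts, and 40 of 94 with the block, beside 56.3%. Usage, the log2 of a transcript over the sum of the other transcripts of its gene, was tested for 27 member transcripts of 10 genes. In a gene with 2 transcripts, the usage values mirror each other, so that these are not independent tests. The 27 also include both copies of Rbm39 and the 1761-nt Hnrnpc transcript, at 2.05e-08 FPKM in Ad-GFP samples, far below the pseudocount. Those rows say nothing on usage. None passed the limma test, with or without the block, whereas 6.13% of the transcripts of all genes passed, or 5.28% with the block. An unadjusted p below 0.05 was found for 1 of 27, beside 18.1% of the transcripts of all genes. Of the 3 Srsf5 transcripts, those of 1055 and 1180 nt fell (adjusted p = 0.0159 and 0.0457) and that of 1051 nt missed the threshold (0.0507), and the 1180-nt transcript held 13.8% of Srsf5 FPKM in Ad-GFP and 12.5% in Ad-h-NR4A2 samples. For Celf2 the 1799-nt transcript held 66.1% and 67.4%, for Ptbp1 the 2890-nt transcript held 50.9% and 53.2%, and for Hnrnpm the 2469-nt transcript held 53.5% and 56.1%. The ranges of these shares overlapped between groups. FPKM of overlapping transcripts are estimates, and their errors were not used.

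Usage was also tested in genes that muscle splicing factors are known to act on. Of 66 transcripts of 15 such genes, 5 passed, from Tpm1, Tpm3, and Slc8a1, a share near the 6.13% of all transcripts tested for usage. With a pseudocount of 1, 14 of the 66 passed, a share above the 13.3% of all transcripts tested for usage. The comparison with all transcripts thus depended on the pseudocount. Tpm1 encodes the main tropomyosin of heart muscle, and its alternative exons are a classic case of tissue-regulated splicing. Its 1172-nt transcript made up 0.555% to 0.774% of Tpm1 FPKM in Ad-GFP samples and 2.32% to 3.72% in Ad-h-NR4A2 samples. It rose from 38.3 ± 2.75 to 187 ± 25.4 FPKM (SD, n = 6), and its usage by 2.28 on the log2 scale (SE 0.15, adjusted p = 1.53e-06). The dominant 1235-nt transcript stayed at 5894 ± 542 and 5869 ± 662 FPKM, so that its share was 99.1% and 96.6%. It also passed in usage (log2 -1.99, limma adjusted p = 4.81e-06). That call is the counterpart of the rise of the 1172-nt transcript and not a separate change. A 1246-nt transcript, at 0.0470 and 0.310 FPKM, also passed in usage (adjusted p = 0.00674), but not with the block (0.0665) or a pseudocount of 1 (0.0541).

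The other calls in usage were weaker. The 1132-nt transcript of Tpm3 went from 4.31% to 0.711% of Tpm3 FPKM (usage log2 -2.31, adjusted p = 0.0400). It had 0.831 ± 0.706 FPKM in Ad-GFP samples and did not pass with the block (0.115), without the filter on low values (0.0517), with a pseudocount of 0.01 (0.121), or without any 1 of 9 samples (Ad-GFP 24, 25, 26, 27, or 29 or Ad-h-NR4A2 25, 26, 27, or 29). The 6215-nt transcript of Slc8a1 is no evidence of a change in usage. It averaged 0.0519 FPKM in Ad-GFP samples, below the pseudocount, and its own level did not pass (log2 fold change -0.41, adjusted p = 0.280), so that its usage value of -1.56 mostly carried the rise of the dominant Slc8a1 transcript. It did not pass with a pseudocount of 0.01 (0.105).

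Other genes of RNA processing were taken from lists chosen by function, with earlier results of these data known. They are given by their counts beside the 40.9% of all genes. Of 11 kinases of SR proteins and their relatives, 7 passed, 1 higher and 6 lower (6 lower alone after quantile normalization). Srpk3, the muscle-enriched SR protein kinase, was at 28.2, 33.7, and 35.3 FPKM in Ad-GFP samples and at 13.9, 16.35, and 19.1 FPKM in Ad-h-NR4A2 samples. The groups were far apart (log2 fold change -0.996, SE 0.09, adjusted p = 1.16e-06), and Srpk3 was the kinase whose means differed by at least 1.5. Of 59 other spliceosome proteins 24 passed, 16 higher and 8 lower. Prpf3 and Prpf6, proteins of the U4/U6 and U5 particles that join before splicing, rose most. Prpf3 went from 29.7 ± 2.65 to 47.8 ± 3.57 FPKM (log2 fold change 0.69, adjusted p = 2.80e-06) and Prpf6 from 27.9 ± 1.97 to 44.0 ± 1.65 FPKM (0.66, adjusted p = 3.21e-07), both without overlap.

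Of 48 other splicing regulators, 18 passed, 8 higher and 10 lower (24 after quantile normalization, 7 higher and 17 lower, and 37 with the block). With the block, 59.4% of all genes passed. Pcbp3, a poly(C)-binding protein, fell from 24.4 ± 2.35 to 16.2 ± 2.70 FPKM (log2 fold change -0.60, adjusted p = 4.40e-04). The neuronal factor Nova1 rose at a low level, from 0.577 ± 0.0975 to 1.07 ± 0.109 FPKM (0.80, adjusted p = 1.06e-04), and the epithelial factor Esrp2 went from 0.0819 ± 0.0199 to 0.184 ± 0.0692 FPKM (0.61, adjusted p = 0.0115). Of 10 genes of the exon junction complex and nonsense-mediated decay, 6 passed, 2 higher and 4 lower, and of 18 genes of cleavage and polyadenylation, 6 passed, 3 in each direction (11 with the block). No gene of these last lists was differentially expressed.

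Of 43 muscle splicing targets, 27 passed, 9 higher and 18 lower, and 11 had means differing by at least 1.5. Lmo7, a scaffold at cell junctions and Z-disks, rose from 56.5 ± 7.10 to 234 ± 48.9 FPKM (log2 fold change 2.03, adjusted p = 5.35e-08). Slc8a1, the sodium-calcium exchanger, and Tpm3 also rose, with log2 fold changes of 1.14 and 0.79. Nexn, an actin-binding Z-disk protein, went from 172 ± 16.4 to 94.4 ± 9.96 FPKM (-0.87, adjusted p = 1.13e-06), and Bin1, which shapes T-tubules, from 7.01 ± 2.49 to 3.75 ± 1.07 FPKM (-0.86, adjusted p = 0.00829, with overlapping groups). Tnnt2 and Ryr2 of this list are also cardiomyocyte markers and are counted in both lists. These are levels of the most abundant transcript, not inclusion of an exon.

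NR4A2 binds DNA as a monomer at the element AAAGGTCA, and the promoters of the members were searched for it. RefSeq promoters on GRCr8, from 250 bases before to 50 after the start, were matched for 74 of the 84 members (73 by symbol and Qk by its transcript). A single window was taken for each, so that any other starts of these genes were not searched. The 10 not matched included Rbfox2, Rbm20, and Celf2, which passed the test, so that their promoters were not searched. On either strand, 0 of 74 member promoters held AAAGGTCA, compared with 1.43% of all 33469 promoters. With so rare an element, 0 of 74 does not set the members apart from all promoters. The GC box (GGGCGG) was in 58.1% of member promoters and 33.1% of all, the CCAAT box (CCAAT) in 51.4% and 37.5%, and the TATA box (TATAAA) in 9.46% and 14.2%, and the median GC content was 61.8% and 51.7%. Among the 16 matched members past the test, 10 had a GC box and 6 a CCAAT box. The set of all promoters is that of the RefSeq reference and not of the genes tested here, so that these shares are a description only. Such matches are counts of letters in this window and not binding. The 250 bases before the start are shown for 4 members past the test, chosen as the members differentially expressed (Rbfox1 and Srsf12) and as a riser and a faller of different base composition (Hnrnpa1 and Qk). They read 5′ to 3′ along the gene, with capitals marking GC and CCAAT boxes on either strand. The regions are chr10:8999392-8999641, minus strand, for Rbfox1; chr5:52402761-52403010, plus strand, for Srsf12; chr7:136253868-136254117, plus strand, for Hnrnpa1; and chr1:52935175-52935424, plus strand, for Qk.
Rbfox1: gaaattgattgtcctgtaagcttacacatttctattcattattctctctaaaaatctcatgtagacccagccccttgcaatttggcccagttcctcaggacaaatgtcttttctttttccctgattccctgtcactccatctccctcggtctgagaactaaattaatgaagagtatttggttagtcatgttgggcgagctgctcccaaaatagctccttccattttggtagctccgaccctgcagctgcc
Srsf12: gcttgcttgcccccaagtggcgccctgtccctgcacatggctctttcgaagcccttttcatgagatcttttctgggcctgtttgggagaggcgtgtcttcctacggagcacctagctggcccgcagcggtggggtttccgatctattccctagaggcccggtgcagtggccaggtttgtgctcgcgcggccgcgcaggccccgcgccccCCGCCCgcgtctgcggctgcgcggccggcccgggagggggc
Hnrnpa1: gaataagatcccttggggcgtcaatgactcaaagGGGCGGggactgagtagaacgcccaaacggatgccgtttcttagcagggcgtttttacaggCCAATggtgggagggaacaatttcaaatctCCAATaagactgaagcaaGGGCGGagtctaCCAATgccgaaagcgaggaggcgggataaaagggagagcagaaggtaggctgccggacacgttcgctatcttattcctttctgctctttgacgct
Qk: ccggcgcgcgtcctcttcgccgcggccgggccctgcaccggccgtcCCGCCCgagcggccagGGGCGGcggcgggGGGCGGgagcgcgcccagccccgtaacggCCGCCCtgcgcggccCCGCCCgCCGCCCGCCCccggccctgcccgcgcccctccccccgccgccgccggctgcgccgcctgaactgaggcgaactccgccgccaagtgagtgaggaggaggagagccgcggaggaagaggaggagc
The Rbfox1 window held none of the 4 motifs at a GC content of 43.7%, Srsf12 held 1 GC box at 70.3%, Hnrnpa1 held 2 GC and 3 CCAAT boxes at 52.3%, and Qk held 7 GC boxes, some overlapping, at 83.7% (GC content over the 300 bases).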

How the data were processed

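Stranded mRNA libraries of the 12 samples were sequenced as 1 pool. Reads were mapped by the authors with STAR to Rn5 (RefSeq), and the deposited FPKM per transcript came from Cufflinks. Groups were read from the labels.

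Members, lists, and named genes were chosen with earlier results of these data known. For each gene the transcript of highest mean FPKM was kept. The 10950 genes with no value of 0 were compared on log2(FPKM + 0.1) of the deposited values with limma 3.58.1 (eBayes with trend) in R 4.3.3, two-sided and unpaired. The pseudocount understates changes of low genes. Single values were compared by exact permutation over all 924 splits. Named are regulators fixed by function, differentially expressed members, the 5 most abundant by single transcript, untested members, up to 5 differentially expressed genes per other list, and genes past the usage test; others are marked.

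Same-numbered samples deviated together from their group means (correlations across genes 0.35 to 0.62, each sample highest with its own number), so the numbers were taken as pairs; the labels do not say what they stand for, and the paper describes independent experiments on different rats.

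Depth was recovered from values of at most 6 fragments in transcripts of at least 800 nt, of which 98.9% to 99.6% per sample were whole within 0.05. Fragment numbers are given for single-transcript genes and cover counting error only. Alternatives were pseudocounts of 1 and 0.01, other filters, the TPM scale, quantile normalization, no trend, the block, transcripts summed or left out, other fold limits, and each sample left out; usage without copies at other loci, and the alternatives of usage for muscle targets, were added after seeing the data. The fits were tested on simulated data, drawn independently for each gene and sample and thus without the deviations shared within pairs. Python 3.11.15, pandas 2.3.3, NumPy 2.4.6, and Matplotlib 3.10.9 made the tables and plots.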

Additional observations from a re-analysis of the deposited data

Results flagged for a closer look

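Of 122 groups of 6 samples examined for genes named in the text, 7 held a sample far from the other 5 of its group, judged by its gap to the nearest one over the range of the group; chance gives such a gap in about 1 in 20 groups. Hnrnpk was at 164 FPKM in Ad-GFP sample 24 (group median 146), and Sf3b1 was at 66.1 FPKM in the same sample (median 59.3). Without that sample Hnrnpk passed the limma test (log2 fold change 0.13, adjusted p = 0.0195), whereas Sf3b1 had a log2 fold change of 0.08. Rbm18 was at 88.2 FPKM in Ad-h-NR4A2 sample 27 (median 80.1), and Hnrnpdl was at 78.8 FPKM in Ad-GFP sample 26 (median 87.4). Of the other genes, Dyrk2 was at 6.69 FPKM in Ad-h-NR4A2 sample 24 (median 5.90), Smg9 was at 2.97 FPKM in Ad-h-NR4A2 sample 25 (median 4.18), and Upf3b was at 17.2 FPKM in Ad-GFP sample 29 (median 21.0).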

How the results depend on the processing

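The 19 members past the test also passed, in the same direction, with pseudocounts of 1 and 0.01, without the filter on low values, with a mean FPKM of at least 1, after quantile normalization, without trend, and with the replicate block. On the TPM scale 17 of the 19 passed, with transcripts summed 18, with several-transcript genes left out all 16 tested, and without single samples 14 to 19. The block, in which pairs are compared, moved the number of members past the test to 36, of member transcripts to 40, of other splicing regulators to 37, and of cleavage and polyadenylation genes to 11. It also moved the share of all genes from 40.9% to 59.4% and of all transcripts from 39.1% to 56.3%, so that such gains are not particular to these lists. In complete pairs the block leaves every estimate as it was, so that directions could not change. At a fold limit of 2, 0 members were differentially expressed by limma, since the larger falls, in Srsf12 and Rbfox1, lie between 1.5 and 2. The share of all genes at that limit is not given here. An unadjusted limma p below 0.05 was found for 29 of 77 members and for 5376 of all 10950 genes. Usage calls among muscle targets numbered 14 of 66 with a pseudocount of 1, beside 13.3% of all transcripts tested for usage. With single samples left out, members past the test numbered 14 to 22, differentially expressed members 2 to 3, member transcripts 16 to 22, SR protein kinases 6 to 7, spliceosome proteins 22 to 27, other regulators 13 to 22, decay genes 5 to 6, cleavage genes 5 to 7, muscle targets 25 to 28, their usage calls 4 to 6, and member usage calls 0. Values near 0 changed sign for Mbnl1 after quantile normalization (-0.00539) and without Ad-GFP 29 or Ad-h-NR4A2 24 (-0.0230 to 0.0693 over samples left out) and for Srsf10 (-0.0460 to 0.0202). The scalings moved the median log2 fold change of all genes from -0.02 to at most -0.05. Depth limits Srsf12, Rbm47, and other members of few fragments.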

Other observations

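Further changes among the RNA-processing lists concern genes named after their values were seen. Of the 11 kinases of SR proteins and their relatives, 6 had groups that did not overlap, beside 21.5% of all genes. Besides Srpk3, 5 of these kinases fell without overlap. Dyrk1a, which phosphorylates several splicing factors, went from 37.8 ± 2.26 to 26.3 ± 3.86 FPKM (SD, n = 6; log2 fold change -0.53, adjusted p = 2.08e-04). Dyrk1b (-0.48), Srpk2 (-0.31), Dyrk2 (-0.30), and Clk4 (-0.25) fell by less, and Clk1 rose by 0.14 with overlapping groups (adjusted p = 0.0256); it did not pass after quantile normalization (0.0858) or without Ad-GFP 25, 26, or 28 or Ad-h-NR4A2 26, 27, or 29 (highest adjusted p 0.0610). Among genes of the exon junction complex and nonsense-mediated decay, the core components Magoh and Eif4a3 rose by 0.23 and 0.19 on the log2 scale. The decay factors Smg6 (-0.39), Upf2 (-0.32), Smg9 (-0.29), and Upf3b (-0.28) fell, Smg9 with an adjusted p of 0.0487 that rose above the threshold without the filter on low values (0.0630) and without Ad-GFP 26, 27, 28, or 29 or Ad-h-NR4A2 25, 27, 28, or 29 (up to 0.102). Cstf2, which binds downstream of the cleavage site, rose from 4.35 ± 0.440 to 5.81 ± 0.813 FPKM (0.40, adjusted p = 0.00566). What these levels do to splicing or decay was not tested.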
